A study of Rattus norvegicus with 8 samples.

Results

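The nuclei described here are vagal sensory neurons marked by Xylt1 together with Sctr, Cckar or Chrna3, in the nodose ganglia of untreated 8-week-old Long Evans rats. They were chosen by their own counts: a nucleus was selected when it held 2 or more UMIs (unique molecular identifiers, 1 per captured transcript) of Xylt1 and the UMIs of Sctr, Cckar and Chrna3 summed to 1 or more. The rule selected 1295 of 36726 kept nuclei (3.53%). Ganglia of 18 male and 18 female rats were dissected, and each of 12 pools combined the ganglia of 1 side from 6 rats. There were 3 pools for each combination of labelled sex and side, written ML1 to ML3 (male, left), MR1 to MR3 (male, right), FL1 to FL3 (female, left) and FR1 to FR3 (female, right). The design compares left with right ganglia and males with females. No group carried a transgene or a treatment. By the numbers of rats and pools, left and right pools of a sex would draw on the same rats.

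The nodose ganglion holds the cell bodies of vagal sensory neurons, which carry signals from the gut, heart and lungs to the brainstem. Cckar encodes the receptor for cholecystokinin, a peptide that enteroendocrine cells release after a meal, and Sctr encodes the receptor for secretin, a duodenal hormone. Chrna3 encodes a subunit of nicotinic acetylcholine receptors of peripheral neurons, which pairs with the subunits encoded by Chrnb4 and Chrna5. Xylt1 encodes a xylosyltransferase that adds the first sugar of the glycosaminoglycan chains of proteoglycans.

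The stretches of DNA before the starts of Xylt1 (the gene required of every selected nucleus) and Sctr (the partner found in the fewest selected nuclei) are shown because their base composition differs. Both are the 250 bases before the annotated start, from RefSeq on build GRCr8, which is not the build of the deposited files, and on the plus strand. Capitals mark the letters TGACG (a cyclic AMP response element half-site) or GGGCGG (a GC box), each searched on both strands.
Xylt1, chr1:181077972-181078221: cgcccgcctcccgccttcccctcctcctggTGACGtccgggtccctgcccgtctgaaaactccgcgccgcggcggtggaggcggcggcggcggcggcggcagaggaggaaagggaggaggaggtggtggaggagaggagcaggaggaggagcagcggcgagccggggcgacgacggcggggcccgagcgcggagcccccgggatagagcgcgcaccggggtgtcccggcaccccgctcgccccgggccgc
Sctr, chr13:33680377-33680626: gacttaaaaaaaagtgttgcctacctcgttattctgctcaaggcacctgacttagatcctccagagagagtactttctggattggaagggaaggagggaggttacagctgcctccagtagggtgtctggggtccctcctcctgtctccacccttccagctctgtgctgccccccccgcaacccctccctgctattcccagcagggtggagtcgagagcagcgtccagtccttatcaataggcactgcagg
The Xylt1 stretch is 78.4% G and C, the Sctr stretch 56.0%, and the median over 33469 rat promoters is 51.2%. The Xylt1 stretch holds 1 half-site, which 18.2% of the promoters hold, and no GC box, which 30.5% hold. The Sctr stretch holds neither. The stretch of the rule gene Chrna3, which is not printed, is 65.2% G and C and holds 2 GC boxes and no half-site.

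Depth and labels bear on the comparisons. Pools held from 7139364 to 19456287 UMIs. Selected nuclei had a median of 4351 UMIs, against 2954 in the remaining neurons and 1845 in satellite glia, so the rule favours deeply counted nuclei. The sum of the male-specific genes Kdm5d and Eif2s3y contradicted the labelled sex of 2 pools. In CPM, UMIs brought to a common total, it was 2.13 for ML1 and 87.9 for FL1. The other male-labelled pools had 83.5 to 90.7 CPM and the other female-labelled pools 1.51 to 3.12. These pools keep their labels below, and values without them are given where they change a result. A cell barcode occurring in more than 1 sublibrary was carried by 3808 nuclei, 152 of them selected, and 5 pairs of selected nuclei shared one.

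The label of vagal neurons was checked against cell class. Of the 1295 selected nuclei, 1171 (90.4%) lay in clusters of neuron class. They made up 4.43% of the 26439 neuron-class nuclei. The other 124 comprised 42 satellite glia, 35 nuclei of mixed clusters, 18 endothelial or mural nuclei, 12 sympathetic or chromaffin-type, 10 skeletal muscle and 7 Schwann nuclei. These 124 nuclei were deep (median 7763 UMIs) and carried Apoe, a lipid carrier abundant in satellite glia, at 906 CPM. Selected nuclei of neuron class carried Apoe at 164 CPM.

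A single cluster held 940 of the selected nuclei (72.6%). Its 1703 nuclei were led by Xylt1, an unnamed gene (ENSRNOG00000006324), Sctr, Cckar and Chrna3, and 55.2% of them met the rule. The 763 nuclei of this cluster that did not meet it were shallow, with a median of 2233 UMIs, and 359 of them had no UMI of Xylt1. They carried Sctr at 237 CPM, Cckar at 171 and Chrna3 at 424. The 355 selected nuclei outside the cluster had a median of 6579 UMIs, Apoe at 626 CPM against 28.9 in the selected nuclei inside, and 99 of them lay in a cluster led by Nnat and Cartpt. Xylt1 was at 1587 CPM inside and 417 CPM outside.

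Nuclei just inside the rule (Xylt1 at 2 UMIs, the other genes summing to 1) numbered 126, of which 69.0% were of neuron class and 36.5% in the main cluster. Just outside it, 417 nuclei had 1 UMI of Xylt1 and a sum of 1 (17.0% in the main cluster), and 419 had 2 UMIs of Xylt1 and a sum of 0 (8.59%). Well inside, with Xylt1 at 6 or more and a sum of 4 or more, 84.6% of 325 nuclei lay in the main cluster.

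The 3 partner genes were not found in every selected nucleus. Chrna3 had a UMI in 1041 nuclei (80.4%), Cckar in 760 (58.7%) and Sctr in 537 (41.5%). All 3 were found in 258 nuclei, whose median depth was 6352 UMIs. Cckar and Chrna3 without Sctr were found in 337 nuclei, Chrna3 alone in 307, Sctr and Chrna3 without Cckar in 139, Cckar alone in 114, Sctr alone in 89, and Sctr and Cckar without Chrna3 in 51. Nuclei with Sctr alone had a median of 2640 UMIs, so the combinations moved with depth. The selected nuclei held 58.2% of all Xylt1 UMIs in the kept nuclei, 39.9% of the Cckar UMIs, 38.2% of the Sctr UMIs and 34.9% of the Chrna3 UMIs.

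The rule genes were high in the selected nuclei of each pool, which the rule itself ensures. Levels are sums of UMIs over the nuclei of a pool, in CPM. Chrna3 (ENSRNOG00000013829) had a median of 509 CPM over pools, from 408 in FL1 to 610 in FL3, against 59.3 (34.9 to 70.7) in the remaining neurons. Cckar (ENSRNOG00000043124) had a median of 202 CPM, from 153 in ML1 to 301 in MR3, against 19.4 (9.61 to 26.1). Sctr (ENSRNOG00000049766) had a median of 111 CPM, from 77.7 in MR3 to 147 in FR2, against 10.4 (7.94 to 18.6). Xylt1 (ENSRNOG00000056658) had 793 CPM in ML1 and up to 1254 in MR2, against 28.4 to 55.5 in the remaining neurons.

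Receptors that the rule did not name were also high. Glp1r encodes the receptor for glucagon-like peptide 1, an incretin. In the selected nuclei its level was 88.3, 73.5 and 112 CPM in ML1 to ML3, 137, 161 and 117 in FL1 to FL3, 149, 111 and 136 in MR1 to MR3, and 113, 107 and 122 in FR1 to FR3. The remaining neurons had 12.4 to 26.7 CPM, so no pool overlapped. The median log2 ratio over pools was 2.16 (1.94 to 2.74), where ratios are of CPM plus 5. Since the same nuclei chose the rule genes and gave these values, no test was made. Glp1r was also among the leading genes of a mixed cluster of 123 nuclei, led by Agtr1a.

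The partner subunits of Chrna3 followed. Chrnb4 had a median of 119 CPM (97.6 to 177) in the selected nuclei and 30.1 (23.8 to 36.1) in the remaining neurons. Chrna5 had 71.8 CPM (48.8 to 101) against 16.9 (13.3 to 20.3). In both genes every selected sum exceeded every sum of the remaining neurons. Chrna7, a subunit that forms receptors on its own, had 79.8 CPM against 52.4, and was higher in 11 of 12 pools.

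Of 36 listed gut peptide and nutrient receptors in the files, 8 reached 10 CPM in either set. Glp1r, and the rule genes Cckar and Sctr, which the rule makes high, were at least 2-fold higher in all 12 pools, and Gpr65, a proton-sensing receptor, was at least 2-fold lower in all (8.19 against 42.4 CPM). Among all 9251 genes that reached this level, 0.422% were at least 2-fold higher and 0.346% at least 2-fold lower in all 12 pools. Of 18 nicotinic and muscarinic receptor genes, 9 reached the level, and Chrna5, Chrnb4 and the rule gene Chrna3 were 2-fold higher throughout. Npy2r, the peptide YY receptor, had a UMI in 9.03% of selected nuclei and 1.52% of remaining neurons (3.02% and 0.555% of nuclei thinned to 1500 UMIs).

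**Figure D1:**
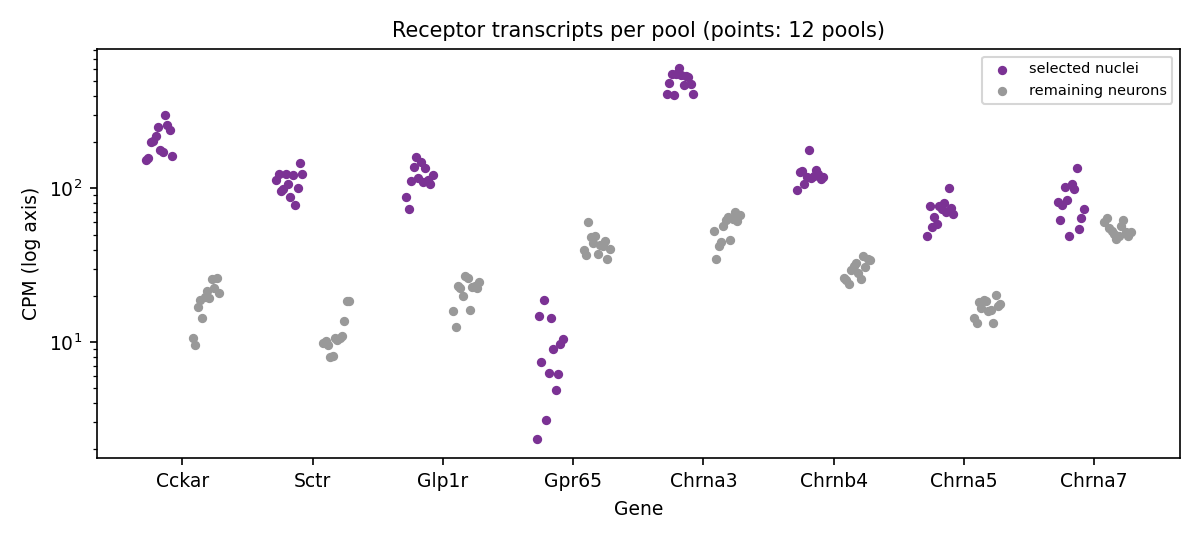
Level of 8 receptor genes (CPM, log axis) in the selected nuclei (purple) and the remaining neurons (grey), with 1 point for each of 12 pools. Cckar, Sctr, Glp1r, Chrna3, Chrnb4 and Chrna5 show no overlap, with Glp1r between 73.5 and 161 in selected nuclei and between 12.4 and 26.7 in the remaining neurons, while Gpr65 lies lower in the selected nuclei.

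Nuclei with 1500 or more UMIs were thinned to that number, which left out 68 selected nuclei, 4541 remaining neurons and 1853 satellite glia. For Glp1r and Chrnb4 the shares of nuclei with a UMI fell and kept their order between these classes, which was not so for every listed gene: Lepr, the leptin receptor, had 13.1% in remaining neurons and 10.5% in satellite glia before thinning, and 5.75% and 6.10% after it. Glp1r was found in 16.6% of thinned selected nuclei, 3.44% of remaining neurons and 3.09% of satellite glia, a class that should lack it (unthinned 41.5%, 6.39% and 5.69%). Chrnb4 was found in 19.2%, 4.26% and 2.35%, against 45.4%, 9.26% and 4.20% before thinning. For Glp1r the remaining neurons were thus close to satellite glia, at median depths of 2954 and 1845 UMIs before thinning. The unselected nuclei of the main cluster had Glp1r in 14.7% after thinning.

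Beyond the receptors, the gene highest over the remaining neurons was ENSRNOG00000006324, which has no symbol in the files (114 against 5.98 CPM, median log2 ratio 3.46). Rgs9, a regulator of G protein signalling, had 580 against 110 CPM and a log2 ratio of 2.38 (2.13 to 2.72). St18, a zinc finger transcription factor, had 362 against 66.2 CPM, and Sema3e, a secreted axon guidance ligand, had 418 against 82.7 CPM. St18 was also among the leading genes of another neuron-class cluster, of 3878 nuclei, led by Fhip1a and Kirrel3. Crtac1, an extracellular matrix protein, had 668 against 156 CPM, and Amigo2, an adhesion molecule, 192 against 40.1 CPM. Fam163a, Zbtb7c, Nsg1, AABR07007642.1, ENSRNOG00000026336 and ENSRNOG00000011132 followed with median log2 ratios from 1.70 to 1.79. All of these were higher in 12 of 12 pools.

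**Figure D2:**
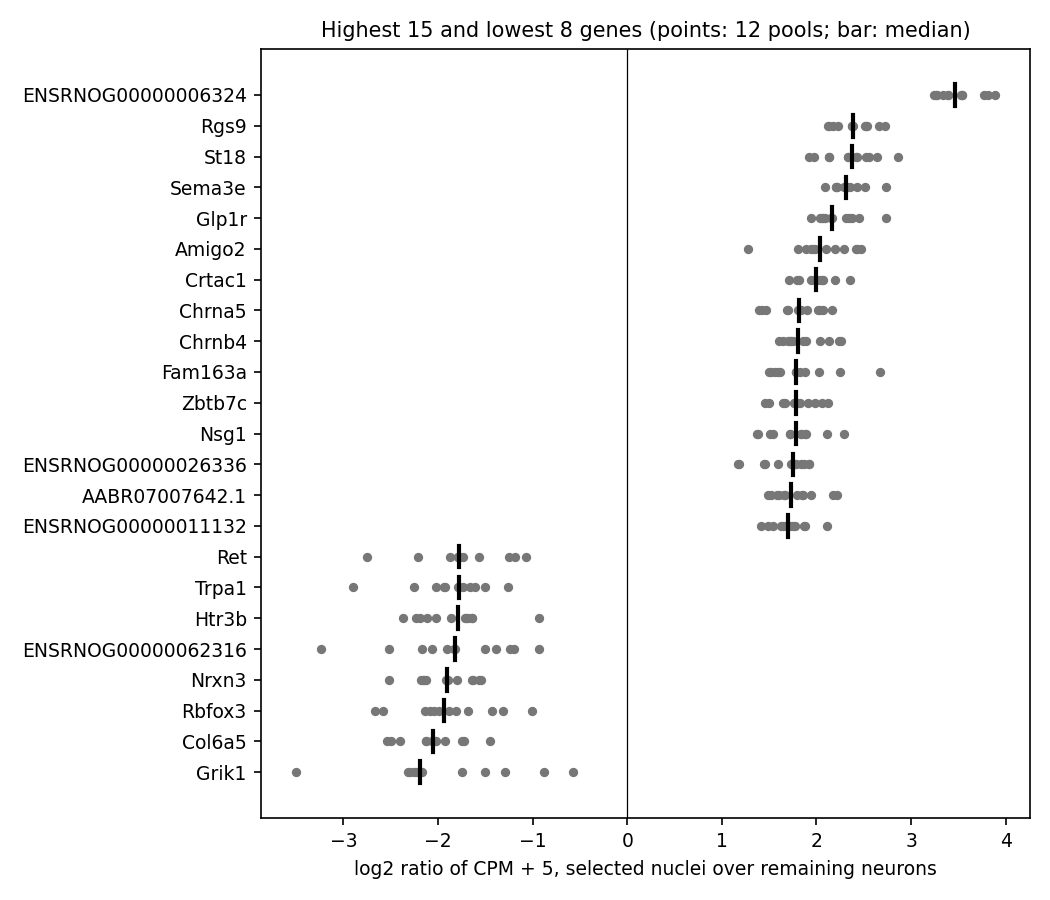
Log2 ratio of CPM plus 5 in the selected nuclei over the remaining neurons, for the 15 highest and 8 lowest genes outside the rule, with 1 point per pool and a bar at the median of 12 pools. The ratios run from a median of 3.46 for ENSRNOG00000006324 to -2.19 for Grik1, and the low genes spread more between pools.

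The lowest gene was Grik1, a kainate-type glutamate receptor subunit, at 171 CPM (52.1 to 426) against 681 CPM (585 to 933). Col6a5, a collagen chain, had 240 against 1013 CPM. Nrxn3, a presynaptic adhesion protein, had 445 against 1656 CPM. Htr3b, a serotonin receptor subunit, had 62.3 against 236 CPM, and Trpa1, an irritant-gated channel, 102 against 372 CPM. Ret, the signalling receptor of the GDNF family, had 107 against 386 CPM, and Rbfox3, a neuronal splicing factor, 30.9 against 135 CPM. In the selected nuclei of the main cluster the medians of these ratios were further from 0, with -2.89 for Trpa1 and -2.81 for Ret.

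Of 25 mechanosensitive and TRP channel genes, 20 reached 10 CPM. Asic2, an acid-sensing channel subunit, was 2-fold higher in all pools (5998 against 2452 CPM), and Trpa1 and Kcnk10 were 2-fold lower in all. Piezo2, a mechanically gated channel, had 112 CPM (58.8 to 190) against 317 CPM. Of 39 voltage-gated channel genes at this level, none was 2-fold higher in all pools and 1, Kcnt2, a sodium-activated potassium channel, was 2-fold lower. Kcnq5, a potassium channel of the M-current family, had 1768 against 792 CPM and a log2 ratio of 1.19 (0.82 to 1.38). Scn10a, a sodium channel of nociceptors, had 578 against 1300.1 CPM.

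Xylt1 was the 1 gene of the 27 proteoglycan synthesis genes at this level that was 2-fold higher in all pools, and the rule chose it. Hs6st3, a heparan sulfate 6-O-sulfotransferase, came closest with 860 against 286 CPM and a log2 ratio of 1.57 (0.88 to 2.12). Hs3st4, a 3-O-sulfotransferase, had 1867 against 1127 CPM. Among 13 core protein genes none was 2-fold higher or lower in all pools, and Gpc6, a glypican, had a log2 ratio of 1.06 (0.86 to 1.20). The median log2 ratio of the 27 synthesis genes was -0.06, against 0.02 over all 9251 genes. For the 8 nodose identity genes the median was -0.02, and for the 6 jugular identity genes -0.85.

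Selected nuclei made up a larger share of right than of left ganglia. The shares were 1.79%, 2.53% and 2.71% of kept nuclei in ML1 to ML3 and 3.93%, 2.88% and 3.99% in FL1 to FL3. They were 4.32%, 3.81% and 3.55% in MR1 to MR3 and 4.71%, 3.49% and 4.06% in FR1 to FR3. All 3 male-labelled left pools lay below every right pool, while FL1 and FL3 lay among the right pools. The mean was 2.97% ± 0.853 in left pools against 3.99% ± 0.470 in right pools (SD of 6 pools a group, n = 6), a difference of 1.02 points (two-sided exact permutation p = 0.02, side permuted within labelled sex). It no longer passed 0.05 without ML1 (0.783 points, p = 0.06), ML2 (0.929, p = 0.055), ML3 (0.966, p = 0.05) or FR1 (0.874 points, p = 0.055 in the same exact permutation test).

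As a share of neuron-class nuclei the difference was wider. Left pools had 3.48% ± 0.914 and right pools 5.26% ± 0.807 (SD of 6 pools a group, n = 6), a difference of 1.77 points with the smallest p these permutations can give (exact p = 0.005). The lowest right pool, MR3 at 4.01%, lay below FL1 (4.64%) and FL3 (4.34%). Without ML1 and FL1 the difference was 1.72 points (exact permutation p = 0.02). A share cannot tell more of these nuclei apart from fewer of the others.

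Depth was matched by thinning, which leaves out shallower nuclei. At 3000 UMIs, a depth reached by 16429 of the 36726 nuclei and by 928 of the 1295 selected, the rule selected 2.88% ± 0.579 in left pools against 4.61% ± 0.634 in right pools (SD of 6 pools a group, n = 6, exact permutation p = 0.005), and every right pool lay above every left pool. At 1500 UMIs the shares were 1.40% ± 0.500 and 2.17% ± 0.239 (SD of 6 pools a group, n = 6, exact permutation p = 0.025). Median UMIs of the selected nuclei were 4683 ± 988 in left pools against 4172 ± 880 in right pools (SD of 6 pools a group, n = 6, exact permutation p = 0.195). Nuclei of the main cluster, whether or not they met the rule, made up 3.61% ± 0.830 in left pools against 5.50% ± 0.802 in right pools (SD of 6 pools a group, n = 6, exact permutation p = 0.01). Selected nuclei outside that cluster made up 0.864% ± 0.367 and 1.01% ± 0.141 (SD of 6 pools a group, n = 6, exact permutation p = 0.335).

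**Figure D3:**
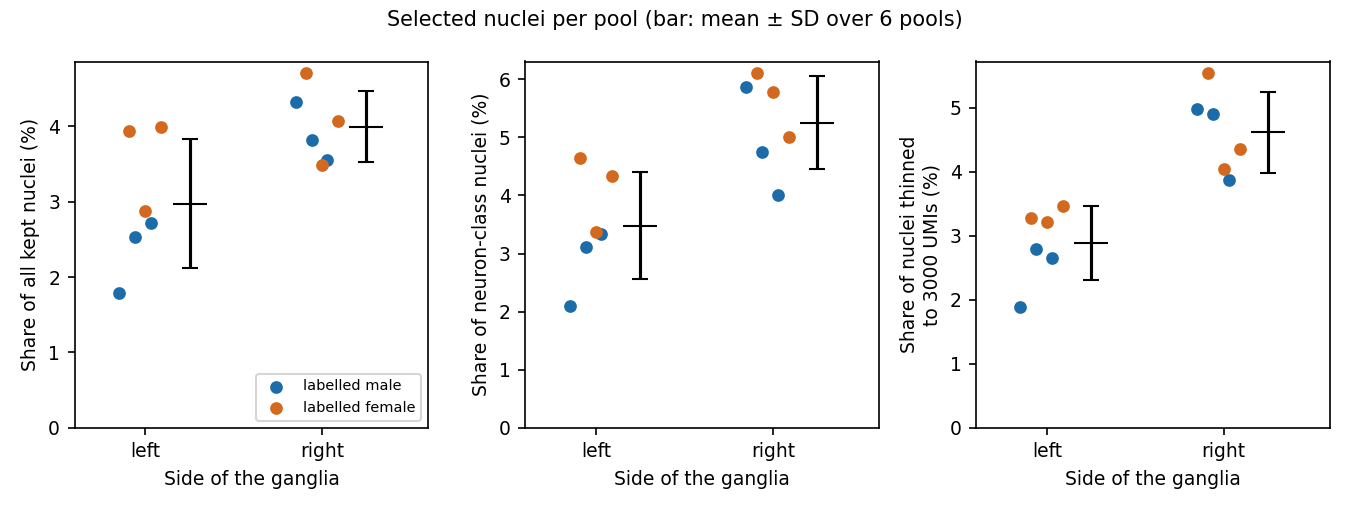
Share of selected nuclei per pool, in percent of all kept nuclei, of neuron-class nuclei and of the 16429 nuclei deep enough to be thinned to 3000 UMIs, by side. Points are pools coloured by labelled sex, bars are means with SD over 6 pools, and in the thinned nuclei every right pool lies above every left pool (2.88% ± 0.579 against 4.61% ± 0.634).

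By labelled sex the share was 3.12% ± 0.936 in pools labelled male against 3.85% ± 0.615 in pools labelled female (SD of 6 pools a group, n = 6), a difference of 0.726 points (exact permutation p = 0.07). Among neuron-class nuclei it was 3.86% ± 1.33 and 4.88% ± 0.994 (SD of 6 pools a group, n = 6), a difference of 1.01 points (exact permutation p = 0.03). This difference missed 0.05 without ML1 and FL1 (0.708 points, exact permutation p = 0.1), thinned to 1500 UMIs (0.118 points, exact permutation p = 0.65), and without any 1 of ML1, ML2, ML3, FR1, FR2 and FR3 (0.660 to 0.987 points, exact permutation p = 0.1 to 0.165). Selected nuclei were deeper in female-labelled pools, with a median of 5098 ± 654 UMIs against 3757 ± 634 (SD of 6 pools a group, n = 6, exact permutation p = 0.01). Thinned to 1500 UMIs, the share of all nuclei was 1.74% ± 0.661 and 1.83% ± 0.464 (SD of 6 pools a group, n = 6, exact permutation p = 0.7). Without ML1 and FL1 the difference in all nuclei was 0.443 points (exact permutation p = 0.233).

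Within the selected nuclei no gene was called by side: 0.0% of 8498 genes tested had an adjusted p under 0.05 in edgeR's quasi-likelihood test, and 438 had an unadjusted p under 0.05. DESeq2 called 0 as well, with 216 genes at an unadjusted p under 0.05. The genes with the smallest p were Pcdh9, Xylt1 and ENSRNOG00000029663. Pcdh9, a protocadherin adhesion molecule, had 1432 ± 192 CPM in left pools against 1112 ± 127 CPM in right pools (SD of 6 pools a group, n = 6), a log2 difference of -0.35 ± 0.07 (SE, edgeR adjusted p = 0.407). Xylt1 had 935 ± 102 CPM in left pools against 1147 ± 104 in right pools (SD of 6 pools a group, n = 6), but its counts chose the nuclei. Its log2 difference was 0.139 to 0.335 in 20 alternative fits without a call, and 0.340 in 1 that called it. When the nuclei were chosen after thinning to 1500 UMIs, it was -0.029.

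Of the receptors that mark these nuclei, Glp1r differed little between sides inside them. Counts of Cckar, Sctr and Chrna3 chose the nuclei, so nothing is read from their values, while Glp1r lies outside the rule. Cckar had a log2 difference, right over left, of 0.11 ± 0.14, Sctr 0.07 ± 0.13, Chrna3 -0.02 ± 0.10 and Glp1r 0.08 ± 0.14 (SE). For Glp1r the left and right pools overlapped, with 115 ± 31.9 CPM in left pools against 123 ± 16.5 in right pools (SD of 6 pools a group, n = 6).

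In all neuron-class nuclei together, 18 of 14181 genes were called by side (0.127%, edgeR adjusted p under 0.05), 12 higher and 6 lower on the right. All 12 that were higher on the right were also higher in the selected nuclei than in the remaining neurons in every pool, 10 of them at least 2-fold and Xylt1 by the rule, whereas 7.96% of the 9251 genes were higher in every pool. None of the 6 lower on the right was. The selected nuclei are part of these neurons, at 3.48% in left pools against 5.26% in right pools. Genes high in them are thereby raised on the right in this fit, so the overlap is partly built in and was not tested. Crtac1 was the gene with the smallest p, at 158 ± 14.4 CPM in left pools against 223 ± 14.8 in right pools (SD of 6 pools a group, n = 6; log2 0.48 ± 0.05 SE, edgeR adjusted p = 0.00109). Xylt1 had 81.6 ± 14.6 against 134 ± 15.8 CPM (log2 0.70 ± 0.11 SE, edgeR adjusted p = 0.0195).

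When the selected nuclei were left out, 8 of 14056 genes were called (0.0569%), all among the 18. When the main cluster was left out too, 4 of 14027 were called (0.0285%): Crtac1, Cyp26b1, Rasgef1b and ENSRNOG00000066172. The log2 difference of Crtac1 went from 0.48 to 0.40 and 0.37, and that of Rgs9 from 0.34 to 0.26 and 0.20. That of Xylt1 went from 0.70 to 0.47 and 0.33, but the nuclei left out were chosen for this gene and hold 58.2% of its UMIs, so nothing is read from its fall. Without the selected nuclei the difference was closer to 0 for 11 of the 12 genes higher on the right, all but Sorcs1, a sorting receptor (0.37 in each set), and also for 5 of the 6 lower on the right. The medians hardly moved at this step, at 0.37 with and without the selected nuclei for the 12, and at -0.44 and -0.43 for the 6. With the main cluster left out too, they were 0.29 for the 12 and -0.43 for the 6. Genes called higher on the right numbered 12, 3 and 1 in the nested sets, and those called lower 6, 5 and 3. Cyp26b1, an enzyme that degrades retinoic acid and is lower on the right, had -0.78, -0.75 and -0.73. These fits share nuclei and pools, so they are set side by side without a test.

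**Figure D4:**
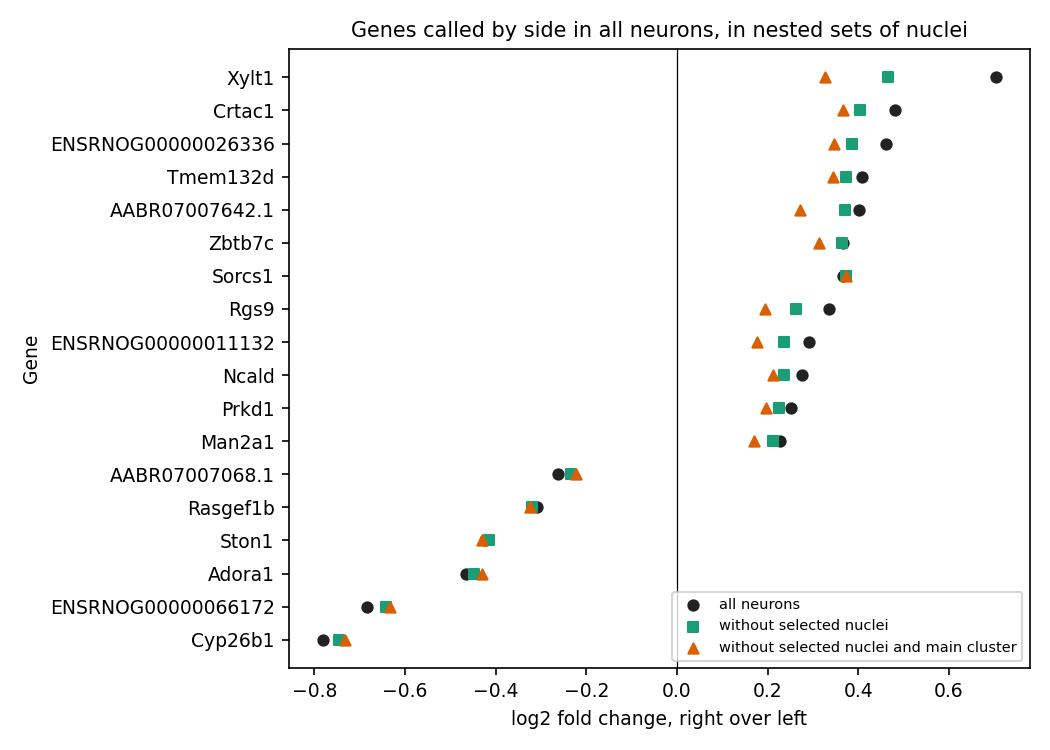
Log2 fold change, right over left, of the 18 genes called by side in all neurons (black), and in the same neurons without the selected nuclei (green) and also without the main cluster (orange). Crtac1 moves from 0.48 to 0.37 and Cyp26b1 stays between -0.78 and -0.73, while Xylt1, whose counts chose the nuclei left out, moves from 0.70 to 0.33.

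By labelled sex, 7 of 8498 genes were called in the selected nuclei (0.0824%), all lower in female-labelled pools. Those described here are Itgb8 (an integrin subunit), AABR07028488.1, Erbb3 (a neuregulin receptor of Schwann cells and satellite glia), Matn2 (a matrix protein), Reln (a secreted glycoprotein) and Adgrb3 (an adhesion receptor). Itgb8 had 172 ± 32.8 CPM in pools labelled male against 96.0 ± 17.2 in pools labelled female (SD of 6 pools a group, n = 6; log2 -0.84 ± 0.13 SE, edgeR adjusted p = 0.00281). Erbb3 had 72.0 ± 17.5 against 34.3 ± 8.18 CPM (log2 -1.02 ± 0.18 SE, edgeR adjusted p = 0.00962). For Itgb8 and Erbb3 every male-labelled pool lay above every female-labelled pool, ML1 and FL1 included. DESeq2 called 36 genes, and without ML1 and FL1 edgeR called 116.

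Markers of satellite glia were also summed per pool. The 11 listed markers, all above 0, summed to 809 to 983 CPM in the selected nuclei of male-labelled pools and to 323 to 968 in female-labelled pools. These ranges overlapped through FL1 (968 CPM), unlike the levels of Itgb8 and Erbb3. The other female-labelled pools had 323 to 700 CPM. In the remaining neurons the markers summed to 268 to 400 and 237 to 400 CPM. In the selected nuclei of neuron class they were at 443 ± 139 and 406 ± 125 CPM (SD of 6 pools a group, n = 6), and there 1 gene was called by labelled sex, which was not among the 7. In the selected nuclei of the main cluster 8 were called, again none of the 7. The part of glial RNA in the 7 calls was not tested beyond these fits. The 12 Schwann markers summed to 2854 ± 289.5 and 2488 ± 188 CPM in the same order (SD of 6 pools a group, n = 6). The 8 fibroblast markers summed to 263 ± 78.6 and 167 ± 32.6 CPM in the selected nuclei, and to 136 ± 51.0 and 83.6 ± 7.59 CPM in those of the main cluster (SD of 6 pools a group, n = 6), with overlap between the labelled sexes in both. Of 4 of them tested in the selected nuclei, 3 were lower in female-labelled pools at an unadjusted p under 0.05 in edgeR and 0 were called. Of 10 satellite glia markers tested there, 6 were lower at that p and 1 was called. For Schwann markers it was 2 of 7, with 0 called. Among all 8498 genes tested, 440 were lower at that p. The part of fibroblast markers in the 7 calls was not tested.

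**Figure D5:**
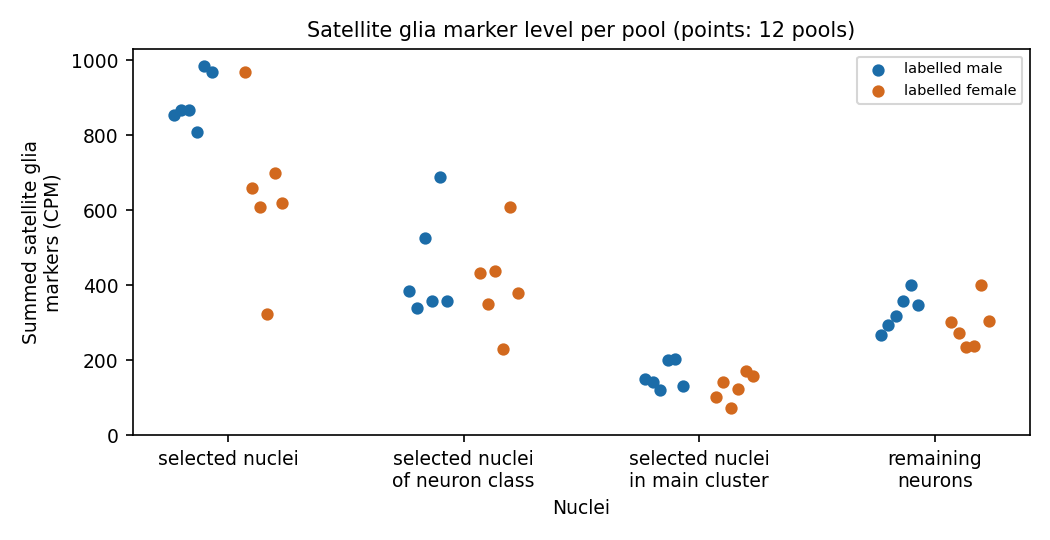
Summed level of 11 satellite glia markers (CPM) per pool and labelled sex, in all selected nuclei, those of neuron class, those of the main cluster and the remaining neurons. The selected nuclei of male-labelled pools lie between 809 and 983, and the values fall to at most 204 in the main cluster.

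No gene had a called interaction of side and labelled sex in the selected nuclei (0.0% of 8498), and 455 had an unadjusted p under 0.05 (152 in DESeq2, which called 0). Dlgap2, a postsynaptic scaffold protein, had the smallest p (edgeR adjusted p = 0.18). It was at 281 CPM in ML1 and 191 in ML2, and at 49.6 to 105 CPM in the other 10 pools. The next, ENSRNOG00000065796 and ENSRNOG00000060617, divided the pools as Kdm5d and Eif2s3y did: the first had 79.0 CPM in ML1 and 4.42 in FL1, the second 4.65 in ML1 and 117 in FL1.

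The side difference in the selected nuclei was compared with that in the remaining neurons by a membership term with pool as a block. Of 13475 genes, 14 were called (0.104%), 1 with a higher and 13 with a lower right-over-left difference in the selected nuclei. Pgm2l1, a glucose bisphosphate synthase, was the higher one (difference in log2 0.40 ± 0.08 SE, edgeR adjusted p = 0.0213). Ttyh1, a membrane protein of the tweety family, had 112 ± 27.3 and 76.3 ± 28.7 CPM on the left and right in the selected nuclei (SD of 6 pools a group, n = 6), and 34.9 and 42.2 CPM in the remaining neurons (difference -0.79 ± 0.14 SE, edgeR adjusted p = 0.00721). The next 11 by p were Etl4, Gpm6b, ENSRNOG00000029663, Itgav, Pde7b, Thsd7b, Apoe, Shank2, Phldb2, Lama2 and Pcdh9, with differences from -0.84 to -0.31, and the levels of each overlapped between sides in the selected nuclei. The last was Tyrp1, a melanosome enzyme. Among them Gpm6b and Apoe are abundant in glia, and Apoe and Tyrp1 were among the leading genes of a satellite glia cluster here. In the selected nuclei of the main cluster the sign turned for Thsd7b (0.0572) and Apoe (0.36), and with the whole cluster in their place for Shank2 (0.0231). With selected nuclei of neuron class alone 0 genes were called (598 at an unadjusted p under 0.05), and without FL1 1 gene was called. Satellite glia markers summed to 803 ± 139 CPM in left pools against 734 ± 247 in right pools in the selected nuclei, and to 282 ± 29.0 and 341 ± 62.2 CPM in the remaining neurons (SD of 6 pools a group, n = 6). Their part in this result was not tested.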

How the data were processed

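Nuclear RNA of rat nodose ganglia was counted by the authors as raw UMI counts per nucleus and gene, deposited with a gene list and a table of nuclei. Fixation and barcoding used Evercode version 2 kits, and the nuclei were spread over 8 sublibraries, per the labels' protocols. Build mRatBN7.2, R 4.3.2 and Seurat 4.1.3 are named in the submitters' processing notes, and the aligner is not given in the sources used here. Pools, sides and labelled sexes were read from the pool names of the deposited table. The members and gene lists were chosen with earlier results of these data known.

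Filters of 300 genes as a minimum and 5% mitochondrial UMIs as a maximum kept 36740 of 36741 nuclei. Scrublet in scanpy 1.11.5 called 14 doublets (0.0381%), so it hardly worked, and these were removed. Classes came from Leiden clusters (leidenalg 0.10.2, resolution 1, 3000 variable genes, 30 components) named by listed markers. UMIs were summed per pool and tested with edgeR 4.0.16 (quasi-likelihood, TMM, filterByExpr, side and labelled sex as terms) under R 4.3.3, with Benjamini-Hochberg adjustment. DESeq2 1.42.0 was an alternative. The scripts were tested on simulated data. CPM printed are UMIs of the summed nuclei scaled to a common total, and log2 ratios use a pseudocount of 5. Shares were compared by exact permutation over pools (400 relabellings). By the numbers of rats and pools, left and right pools of a sex would share rats, but which pools do is not stated. The main side tests treat these pools as independent, and p-values measure the spread between pools. Genes named were the rule genes, listed genes at 50 CPM or 2-fold different in all pools, the 15 highest and 8 lowest at 50 CPM and 25% of nuclei, and those with the smallest p in each test. Npy2r and the genes called in all neurons were named outside this rule, after their values were seen. Some genes that the rule would name are not reported here.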

Additional observations from a re-analysis of the deposited data

Results flagged for a closer look

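The side difference in the selected nuclei differed from that in the remaining neurons for 14 genes, by the test of that difference (edgeR, pool as a block). The log2 values, selected nuclei minus remaining neurons, were 0.40 for Pgm2l1, -0.79 for Ttyh1, -0.43 for Etl4, -0.57 for Gpm6b, -0.66 for ENSRNOG00000029663, -0.64 for Itgav and -0.58 for Pde7b. They were -0.79 for Thsd7b, -0.52 for Apoe, -0.47 for Shank2, -0.84 for Phldb2, -0.41 for Lama2, -0.31 for Pcdh9 and -0.72 for Tyrp1. None was called with selected nuclei of neuron class alone, and with nuclei of the main cluster the sign turned for Thsd7b, Apoe and Shank2.

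In 3 groups of 6 pools 1 pool lay far from the others, among 64 groups examined, where chance gives about 1 in 20. FL2 had the lowest share of selected nuclei among female-labelled pools after thinning to 1500 UMIs (0.925%). MR3 had the highest level of Matn2 among male-labelled pools (192 CPM). FR3 had the highest level of Thsd7b among right pools (129 CPM).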

How the results depend on the processing

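The higher share on the right kept its direction in every alternative run, from 0.783 to 1.22 points with 1 pool left out, and was 0.149 points (exact permutation p = 0.335) for selected nuclei outside the main cluster. Among neuron-class nuclei it ranged from 1.496 to 2.02 points with 1 pool left out. With a replicate block pairing same-numbered left and right pools, the difference was 1.02 points (exact sign-flip p = 0.0312) and 0 genes were called by side. Same-numbered pools correlated at -0.27 to 0.06 in the selected nuclei and at -0.16 to 0.51 in all neurons (0.51 for ML2 with MR2), so the numbers were not taken to pair them. By labelled sex the share differed by 0.461 to 0.966 points with 1 pool left out. It passed the threshold among neuron-class nuclei (1.01 points), with Xylt1 at 1 or more UMIs (1.28) and with the other genes summing to 2 or more (0.902), and without FL2 (0.920) or MR1 (0.966). The neuron-class share by labelled sex ranged from 0.660 to 1.42 points with 1 pool left out, and missed the threshold without any 1 of ML1, ML2, ML3, FR1, FR2 and FR3, thinned to 1500 UMIs (0.118), and without ML1 and FL1 (0.708).

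Genes called by side were 0 to 1 with 1 pool left out, 13 with no low-count filter, and 1 in the main cluster or its selected nuclei. Genes called by labelled sex were 2 to 104 with 1 pool left out (104 without FL1, 54 without ML1), 116 without both, 36 by DESeq2, 127 with no filter, 28 with Xylt1 at 3 or more UMIs, 4 in thinned nuclei, 11 in the main cluster and 1 in neuron-class nuclei. Interactions called were 0 to 2 with 1 pool left out, 23 with no filter, 1 in the main cluster and 3 in its selected nuclei. Genes whose side difference depended on membership were 1 to 44 with 1 pool left out and 36 with edgeR's relative log expression size factors. Such genes were 44 with no filter, 4 without ML1 and FL1, 0 in neuron-class nuclei, 9 in selected nuclei of the main cluster and 3 in the whole cluster. Genes called by side in all neurons fell from 18 to 8 and 4 as nuclei were left out. The sign turned for Xylt1 by side in thinned nuclei (-0.029), and for 3 genes of the membership comparison: Thsd7b (0.0572 in the cluster's selected nuclei, 0.22 in the cluster), Apoe (0.36 and 0.48) and Shank2 (0.0231 in the cluster). The causes were not tested. The fits of neuron-class and main-cluster nuclei and the nested neuron sets were chosen after seeing the data. Depth limits the rule, which misses shallow nuclei of the main cluster.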
